A study of Mus musculus with 9 samples.

Results

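The 9 genes described here encode secreted antagonists of Wnt signalling: Wif1 (Wnt inhibitory factor 1), the secreted frizzled-related proteins Sfrp1, Sfrp2, Sfrp4, Sfrp5 and Frzb, and the Dickkopf proteins Dkk1, Dkk2 and Dkk3. They were taken by gene symbol and make up 9 of the 23420 genes in the count tables. The group was chosen by gene family but selected on measured values too, namely the log2 fold changes of estradiol against vehicle, in which Wif1 was among the genes raised most and Sfrp5 among those lowered most. The antagonists' own values with estradiol are therefore given as description, without p-values, and only BMP2 against vehicle is reported as a test of these 9 genes. The libraries came from ovaries of wild-type CD1 mouse embryos collected on embryonic day 16 and cultured on inserts for 24 hours in phenol red-free α-MEM with antibiotics and a supplement of insulin, transferrin, selenium and linoleic acid. One group had vehicle, another 50 ng/ml of recombinant human BMP2, a secreted growth factor of the TGF-β superfamily, and another 3.67 µM of estradiol-17β (E2), an oestrogen, with 3 libraries each. The treatment of a library was read from the prefix of its title. How many ovaries went into a library, and whether the 3 came from separate cultures or animals, is not stated, so a p-value here reflects library-to-library spread alone, possibly only technical spread.

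Wnt ligands bind frizzled receptors together with the co-receptors LRP5 and LRP6, and the canonical branch stabilises β-catenin, which drives target genes such as Axin2. WIF1 and the frizzled-related proteins bind Wnt ligands outside the cell, the latter through a cysteine-rich domain like that of the frizzled receptors. DKK1 binds LRP5 and LRP6 and blocks the canonical branch, DKK2 binds the same receptors and can inhibit or activate depending on context, and DKK3 is a divergent member whose action on Wnt signalling is less settled. In the fetal ovary, WNT4 and RSPO1 acting through β-catenin promote the differentiation of the supporting cells called pregranulosa cells.

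Gene counts summed to 30418674 to 34320077 per library, and each pair of replicates showed more than counting error, with a chi-square of 1.51 to 2.39 per gene. Every germ cell and pregranulosa marker in the lists had counts in each group (8 and 12 genes). The oestrogen reporter Greb1 stood at 360 ± 7.6 CPM (TMM-scaled counts relative to library size, CPM, mean ± SD, n = 3) with E2 against 96.2 ± 3.02 with vehicle. Pgr, the other oestrogen reporter, stood at 11.1 ± 0.576 CPM with E2, 3.77 ± 0.401 with BMP2 and 3.66 ± 0.233 with vehicle. The BMP reporter Id1 stood at 175 ± 3.8 CPM with BMP2 against 151 ± 2.18 with vehicle, but was also higher with E2 (199 ± 5.71), and Greb1 was also higher with BMP2 (116 ± 4.3).

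Stretches upstream of the annotated start are printed for the 3 members that the values below turn on, the one highest with E2 against vehicle (Wif1), the one lowest (Sfrp5) and the one called lower under both treatments (Sfrp2). They are from RefSeq's GRCm38.p6, read 5′ to 3′ on the gene's strand and ended at the first start in RefSeq or GENCODE, and capitals mark CpG dinucleotides. The positions are chr10:121033754-121033959 on the plus strand for Wif1 (206 bases, 17 CpG), chr19:42202253-42202502 on the minus strand for Sfrp5 (250 bases, 13 CpG) and chr3:83766071-83766320 on the plus strand for Sfrp2 (250 bases, 16 CpG).
Wif1: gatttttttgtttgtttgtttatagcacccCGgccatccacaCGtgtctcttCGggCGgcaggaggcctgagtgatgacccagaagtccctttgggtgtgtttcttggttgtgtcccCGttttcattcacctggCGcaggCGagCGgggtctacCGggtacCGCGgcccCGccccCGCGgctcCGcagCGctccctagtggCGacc
Sfrp5: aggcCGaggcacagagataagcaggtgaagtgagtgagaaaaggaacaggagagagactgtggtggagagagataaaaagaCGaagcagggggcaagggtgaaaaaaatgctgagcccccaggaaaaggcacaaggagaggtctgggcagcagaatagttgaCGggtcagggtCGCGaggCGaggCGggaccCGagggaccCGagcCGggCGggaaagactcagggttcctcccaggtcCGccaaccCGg
Sfrp2: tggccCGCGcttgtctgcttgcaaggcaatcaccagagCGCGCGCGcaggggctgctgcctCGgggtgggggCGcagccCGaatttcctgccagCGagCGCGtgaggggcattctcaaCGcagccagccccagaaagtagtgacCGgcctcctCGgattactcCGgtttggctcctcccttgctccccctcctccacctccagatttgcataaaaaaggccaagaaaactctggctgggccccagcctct

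RefSeq promoter windows (250 bases before to 50 after the start) were matched for 6 members, and all exceeded the median GC content of such windows. Their GC content ran from 57.7% in Dkk2 to 66.0% in Sfrp2, where the median of 32851 windows was 52.7% and the quartiles 45.7% and 61.7%. Dkk2, Dkk1 (60.7%) and Sfrp5 (61.3%) lay within those quartiles. CpG counts per window were 25 for Wif1, 22 for Sfrp2, 20 for Frzb, 15 for Sfrp5, 11 for Dkk2 and 9 for Dkk1, against a median of 7 and quartiles of 3 and 20 over all windows. Wif1 and Sfrp5, which lay at opposite ends with E2, both exceeded that median.

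Motifs were searched on both strands. The full palindromic oestrogen response element was in 0 of the 6 windows, and 0.07% of all windows held it. A single arm of it, AGGTCA, was in 1, that of Frzb, on the opposite strand 2 bases after the RefSeq start, and in 16.3% of all windows. The SMAD motif GGCGCC was in 0 of the 6 and in 11.9% of all. Of the TCF/LEF motifs, CTTTGAA was in the window of Dkk1, beginning 117 bases before the RefSeq start (5.14% of all windows), and CTTTGAT was in 0 of the 6 (3.73% of all). These are letter matches in short windows and say nothing of binding elsewhere.

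The antagonists differed by over 2 orders of size in level. Per kilobase of exon (RPKM), Sfrp1 was highest in vehicle ovaries at 19.7 ± 0.241, followed by Sfrp2 at 7.27 ± 0.251 and Dkk3 at 3.94 ± 0.153. Dkk2 (0.779 ± 0.0771) and Sfrp5 (0.594 ± 0.0654) came next. Wif1 (0.283 ± 0.101), Sfrp4 (0.221 ± 0.0394) and Frzb (0.201 ± 0.0514) followed, and neighbours in this trio overlapped between libraries, so their order is not settled. Dkk1 was lowest at 0.0631 ± 0.0247 RPKM, on 15 reads over the 3 libraries. Sfrp1 alone made up 59.6% ± 0.275 of the summed RPKM of the 9 genes with vehicle, and Sfrp1, Sfrp2 and Dkk3 were the first 3 in all groups.

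**Figure D1:**
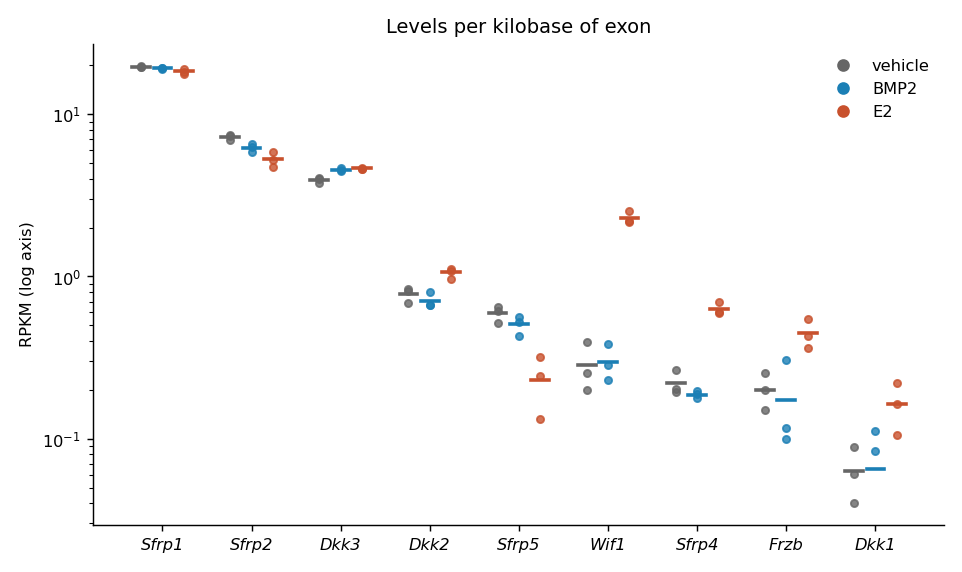
RPKM of each antagonist on a log axis, ordered by the vehicle mean. Points are libraries (3 per group), bars are group means, and the BMP2 library with 0 reads of Dkk1 has no point on the log axis but counts in the mean. Wif1 moves from 0.283 RPKM with vehicle to 2.30 with E2, while Sfrp1 stays between 17.8 and 19.9.

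The order with E2 differed from that with vehicle through Wif1 and Sfrp5. Wif1 had rank 6 with vehicle and with BMP2 and rank 4 with E2, at 2.30 ± 0.197 RPKM. Sfrp5 had rank 5 with vehicle (0.594) and rank 8 with E2 (0.231 ± 0.0928), where its libraries overlapped those of Dkk1. The summed RPKM of the 9 genes was 33.1 ± 0.527 with vehicle, 32.0 ± 0.328 with BMP2 and 33.1 ± 1.14 with E2. The total with E2 thus differed from vehicle by less than the spread between libraries, although its parts did not keep their shares. Sfrp1 made up most of this total. Without Sfrp1, the other 8 summed to 13.4 ± 0.295 with vehicle, 12.7 ± 0.205 with BMP2 and 14.7 ± 0.494 with E2. For these 8, the E2 libraries (14.2, 14.8 and 15.2) lay above the vehicle libraries (13.2, 13.1 and 13.7). The 5 genes of the frizzled-related family summed to 28 ± 0.245 with vehicle and 24.9 ± 1.15 with E2, and the 3 Dickkopf genes to 4.78 ± 0.252 and 5.87 ± 0.0524. The share of Wif1 was 0.852% ± 0.289 with vehicle and 6.95% ± 0.610 with E2.

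With BMP2, most antagonists showed no change that passed the test, and 2 moved by small amounts in opposite directions. Sfrp2 fell 1.16-fold and Dkk3 rose 1.15-fold. Of 8 members that passed the filter on low counts, 1 rose, 1 fell and 6 did not pass, beside 13.7% of all 16360 genes called in this comparison. The median log2 fold change of the 8 was -0.18, against -0.0015 over all genes. The 6 that did not pass had intervals reaching to both sides of no change, so no shared fall is read from this median. The members' share of 25% differs from that background by about 1 gene of 8.

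Sfrp2 lies on chromosome 3 from 83766321 to 83774316 on the plus strand (GRCm38). Its level was 15.1, 16.1 and 15.8 CPM in vehicle replicates 1 to 3 and 13.5, 12.6 and 14.2 in the BMP2 replicates, so that all BMP2 libraries lay below all vehicle libraries. The log2 fold change was -0.22 ± 0.067 (SE, edgeR adjusted p = 0.0141). An antisense gene, Gm26771, overlaps 16.1% of the exon bases of Sfrp2, and reads of the pair cannot be told apart without strand.

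Dkk3, on chromosome 7 from 112116017 to 112159057 on the minus strand, was at 13.5, 12.6 and 13.6 CPM with vehicle and 15.7, 15 and 15.1 with BMP2, again without overlap. Its log2 fold change was 0.21 ± 0.065 (SE, edgeR adjusted p = 0.0176). Neither call held in every fit with a single library left out, although the log2 fold changes stayed at -0.26 to -0.18 for Sfrp2 and 0.18 to 0.23 for Dkk3. Sfrp2 was lost without BMP2 replicate 2 (edgeR adjusted p = 0.118), Dkk3 without BMP2 replicate 1 (0.0894), and both without vehicle replicate 2 (0.0629 and 0.100) and with DESeq2 (0.0865 and 0.0685).

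The 6 others did not pass, and the width of their intervals followed their depth. Sfrp1, on 8393 reads with vehicle and 8592 with BMP2, had a log2 fold change of -0.034 with a 95% interval of -0.093 to 0.025. Dkk2, on 282 and 268 reads, was at -0.14 (-0.42 to 0.14). The thinly covered genes allow larger changes in either direction. The interval was -0.73 to 0.26 for Sfrp4, -0.71 to 0.24 for Sfrp5, -0.85 to 0.39 for Frzb and -0.45 to 0.60 for Wif1.

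Frzb, also known as sFRP3, was uneven between the BMP2 libraries, with 11, 33 and 13 reads in BMP2 replicates 1 to 3. Its estimate was -0.90 without replicate 2 and 0.046 without replicate 1. Dkk1 failed the filter and was not tested. It had 5, 3 and 7 reads in the vehicle libraries and 0, 9 and 7 in the BMP2 libraries, and the 0 allows a level of up to 0.0879 CPM (3 reads, counting error only).

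**Figure D2:**
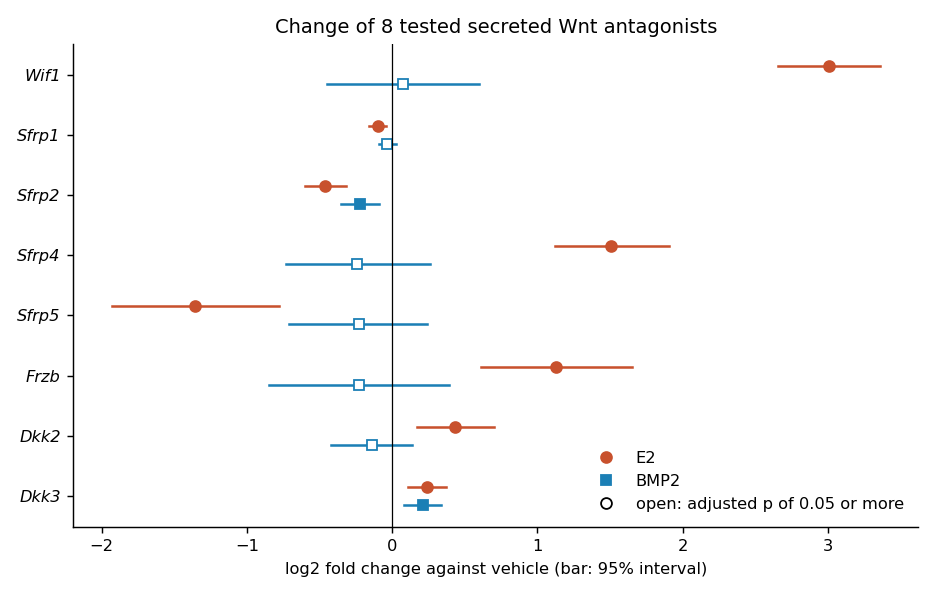
Log2 fold change against vehicle of the 8 tested antagonists, with 95% intervals, for E2 (circles) and BMP2 (squares), where open symbols did not pass an adjusted p of 0.05. With E2 the values run from -1.36 (Sfrp5) to 3.01 (Wif1), and with BMP2 from -0.24 (Sfrp4) to 0.21 (Dkk3). Both sets use the same vehicle libraries. The E2 values were in view when the members were chosen, so their filled symbols are description and not a test.

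With E2, the antagonists stood apart from vehicle in both directions. Wif1 was 8.08-fold higher, Sfrp4 2.85-fold, Frzb 2.20-fold, Dkk2 1.35-fold and Dkk3 1.18-fold higher. Sfrp5 was 2.56-fold lower, Sfrp2 1.38-fold lower and Sfrp1 1.07-fold lower. All 8 tested members were called, 5 higher and 3 lower, beside 32.3% of all genes called, and nothing is read from this count because the comparison led to the choice of members. Their median log2 fold change was 0.34, which for the same reason is description and is not set against all genes.

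Wif1 lies on chromosome 10 from 121033960 to 121100650 on the plus strand, and its promoter stretch is printed above. Its level was 0.614, 0.486 and 0.958 CPM in vehicle replicates 1 to 3 and 5.24, 6.13 and 5.37 in the E2 replicates, on 67 and 522 reads in all. Each E2 library was above every vehicle and BMP2 library, the highest of which was vehicle replicate 3. The log2 fold change was 3.01 ± 0.18 (SE), the 8th highest of the 16360 genes tested. It ran from 2.83 to 3.33 when single libraries were left out.

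Among the frizzled-related proteins, Sfrp4 and Frzb were higher and the rest lower. Sfrp4, on chromosome 13 from 19623104 to 19632994 on the plus strand, was at 0.848, 0.810 and 1.11 CPM with vehicle and 2.54, 2.48 and 2.91 with E2. Frzb, on chromosome 2 from 80411970 to 80447625 on the minus strand, was at 0.819, 0.486 and 0.649 CPM with vehicle and 1.78, 1.17 and 1.39 with E2. Neither gene's E2 libraries overlapped those of vehicle. The log2 fold changes were 1.51 ± 0.20 for Sfrp4 and 1.13 ± 0.26 for Frzb (SE).

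Sfrp5, on chromosome 19 from 42197971 to 42202252 on the minus strand, was at 1.23, 1.17 and 0.989 CPM with vehicle and 0.462, 0.603 and 0.253 with E2. These E2 values rest on 14, 19 and 8 reads, and all lie below the vehicle range. The log2 fold change was -1.36 ± 0.29 (SE), the 16th lowest of all genes tested, and it ran from -1.66 to -1.07 when single libraries were left out.

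Sfrp2 was at 10.2, 11.2 and 12.6 CPM with E2, below all vehicle libraries, with a log2 fold change of -0.46 ± 0.070 (SE). Sfrp1, the most abundant antagonist, was at 86.1, 85.1 and 87.2 CPM with vehicle, 83.6, 84.0 and 84.8 with BMP2 and 77.6, 79.8 and 83.4 with E2. It lies on chromosome 8 from 23411502 to 23449632 on the plus strand. Its difference from vehicle was small (log2 fold change -0.10 ± 0.030 SE), and without E2 replicate 1 it was -0.078 and no longer called.

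All 3 Dickkopf genes had higher means with E2. Dkk2, on chromosome 3 from 132085292 to 132180304 on the plus strand, was at 3.01, 2.56 and 3.09 CPM with vehicle and 4.16, 4 and 3.57 with E2 (log2 fold change 0.43 ± 0.13 SE). It was no longer called without vehicle replicate 2 (log2 fold change 0.36). Dkk3 was at 15.6, 15.6 and 15.8 CPM with E2, above every vehicle library, with a log2 fold change of 0.24 ± 0.065 (SE). Dkk1, on chromosome 19 from 30545863 to 30549665 on the minus strand, had 12, 8 and 17 reads with E2 against 5, 3 and 7 with vehicle, a mean of 0.396 ± 0.142 against 0.153 ± 0.0598 CPM, and was not tested.

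**Figure D3:**
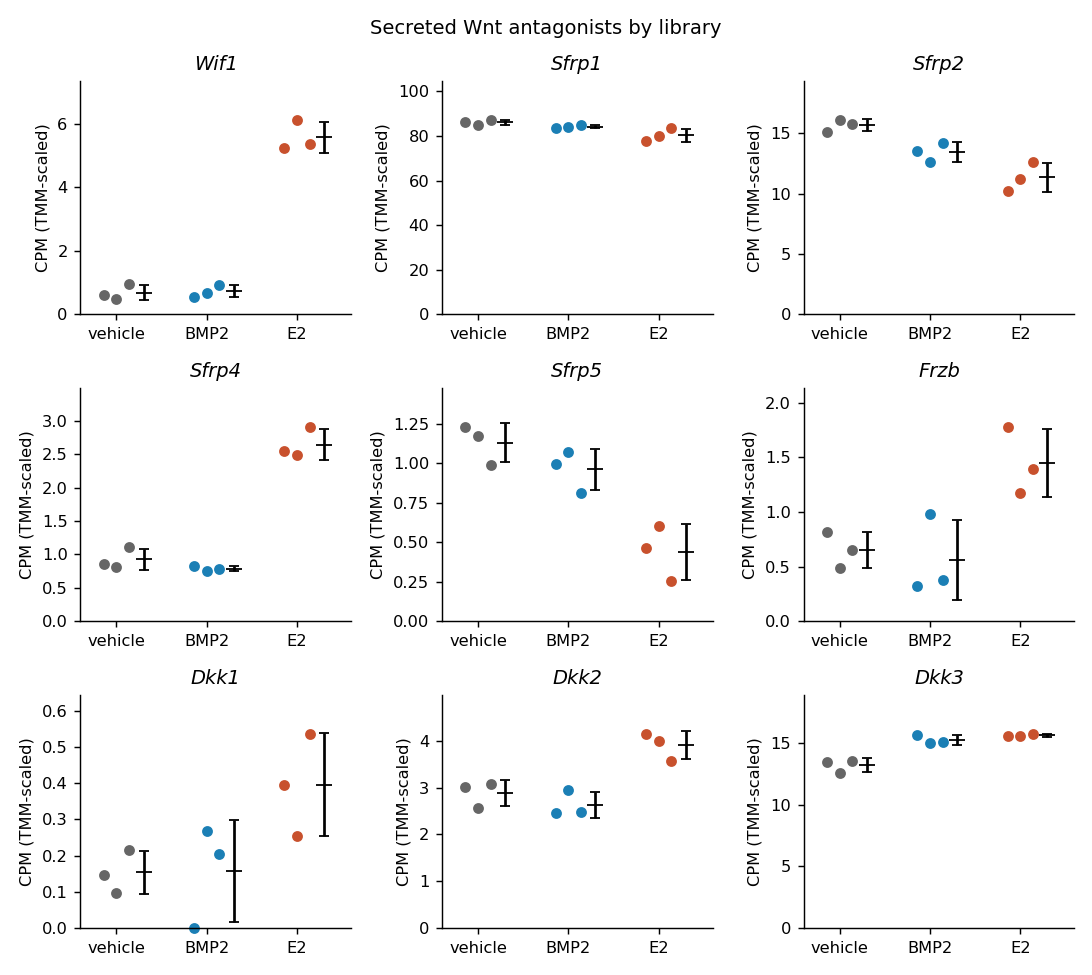
TMM-scaled CPM of each antagonist in each of the 9 libraries (points, replicates 1 to 3 from left to right within a group), with the mean and SD of each group beside them, on axes that start at 0. Wif1, Sfrp4, Frzb and Dkk2 are higher and Sfrp5 and Sfrp2 lower in every E2 library than in every vehicle library, while Dkk3 is higher than vehicle with both treatments.

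Set directly against each other, BMP2 and E2 gave 6 of 8 tested members called, 2 higher and 4 lower with BMP2, beside 28.2% of all genes, and this too is description since it uses the E2 libraries. Wif1 was 7.67-fold lower with BMP2 than with E2, Sfrp4 3.36-fold, Frzb 2.58-fold and Dkk2 1.49-fold lower. Sfrp5 was 2.18-fold and Sfrp2 1.18-fold higher with BMP2. The Frzb value depended on BMP2 replicate 2, without which the log2 fold change was -2.03 in place of -1.37, and Sfrp2 was no longer called without BMP2 replicate 3 or without E2 replicate 1. Dkk3 was the member closest between the treatments, with a log2 fold change of -0.032 and a 95% interval of -0.16 to 0.093.

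The genes whose pattern over the 9 libraries was most like that of Wif1 (Pearson correlation of log2 CPM, among 14391 genes compared) were Ogn, a small proteoglycan (r = 0.996), 2810474O19Rik (0.995), Ppip5k2 (0.994), Rev3l (0.992) and Pank3 (0.992). They shared the step between E2 and the other groups, not its size. Ogn was at 6.02 ± 0.388 CPM with vehicle, 6.26 ± 0.223 with BMP2 and 9.40 ± 0.398 with E2. For Sfrp5 the most alike were Prdx5 (0.986), Pcdh7 (0.982), Cenpb (0.979), Cx3cl1 (0.977) and Nhsl2 (0.977). Pcdh7, a protocadherin, was at 16.2 ± 0.404 CPM with vehicle and 12.0 ± 1.36 with E2. The points share libraries and depth and fall into 3 groups, so these are descriptions, and by rank correlation 0 of the 5 genes were shared for either member.

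Other extracellular and membrane inhibitors of the pathway, 17 genes that are not members, were tested in 14 cases. Some of these genes also stand in the list of β-catenin targets below and are counted in both. With E2, 2 rose, 6 fell and 6 did not pass (57.1% called, beside 32.3% of all genes, median log2 fold change -0.16). Draxin, a secreted inhibitor, rose to 1.31 ± 0.128 from 0.664 ± 0.0985 CPM, and Dkkl1, a Dickkopf-like gene named here after its values were seen, had the largest value of the list (log2 fold change 1.43) at a low level (0.641 against 0.238 CPM). Igfbp4, a binding protein of insulin-like growth factors that also antagonises Wnt, fell to 242 ± 4.93 from 319 ± 4.53 CPM, and Trabd2b, which cleaves Wnt ligands, fell 1.33-fold to 7.55 ± 0.215 CPM. With BMP2, Igfbp4 fell (log2 fold change -0.16 ± 0.021) and Trabd2b rose (0.25 ± 0.074), and 12 did not pass. That share of 14.3% called is near the 13.7% of all genes.

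With E2, the ligands that these antagonists act on had log2 fold changes of -0.57 to 0.43, and the receptors -0.45 to 0.20. They are not set against Wif1, which was chosen with its high value in view. Of 13 Wnt ligands tested with E2, 1 rose, 4 fell and 8 did not pass (38.5% called, near the 32.3% of all genes, median -0.14). Wnt4 rose 1.34-fold (147 ± 3.49 against 110 ± 2.54 CPM), and Wnt2b fell 1.25-fold (127 ± 2.92 against 159 ± 2.86 CPM). Of 16 receptors and co-receptors, 3 rose, 5 fell and 8 did not pass (50% called, median -0.017). The called ones included Fzd2 (log2 fold change 0.20) and Fzd4 (-0.22). Of 6 R-spondins and LGR receptors, which raise Wnt signalling at the membrane, 2 rose, 3 fell and 1 did not pass (83.3% called, median -0.19). Rspo2 was 1.52-fold higher and Rspo1 1.24-fold lower.

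With BMP2, 1 ligand rose, 3 fell and 9 did not pass (30.8% called, beside 13.7% of all genes). Wnt4 rose by little (log2 fold change 0.076 ± 0.026, edgeR adjusted p = 0.0365), and Wnt2b fell (-0.23 ± 0.024). Among receptors 0 rose, 2 fell and 14 did not pass (12.5% called, near the share of all genes). Among R-spondins and LGR receptors 2 rose and 2 fell (66.7% called), Rspo2 by 0.60 ± 0.17 upward and Rspo1 by 0.16 downward on the log2 scale. With DESeq2, 2 ligands, 0 receptors and 1 of the other inhibitors were called, and without vehicle replicate 1 edgeR called 2, 1 and 1, all of them lower with BMP2. Without BMP2 replicate 2 or 3 there were 2 ligand calls, and without BMP2 replicate 1 there was 1 receptor call.

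Of 15 β-catenin target genes, 1 rose with E2, 9 fell and 5 did not pass (66.7% called, beside 32.3% of all genes). Their median log2 fold change was -0.13. Genes with more reads are called at smaller changes. The share of all genes was not matched for level, here or for the other lists. Sp5 fell 1.32-fold, Lgr5 1.26-fold, Ccnd1, the cyclin D1 gene, 1.24-fold and Nkd1, a feedback inhibitor, 1.22-fold, while Myc was the gene that rose (log2 fold change 0.14). LTO1 on the opposite strand overlaps 23.4% of the exon bases of Ccnd1, and its reads may be mixed in. Axin2, the most used readout, was at 90.7 ± 0.899 against 89.8 ± 2.61 CPM and did not pass (log2 fold change 0.016, 95% interval -0.042 to 0.074). Lef1 was called (log2 fold change -0.12 ± 0.047, edgeR adjusted p = 0.0435), although its libraries overlapped those of vehicle. With DESeq2, or without vehicle replicate 1, 6 targets fell and 0 rose. With BMP2, 3 targets fell, 0 rose and 12 did not pass (20% called, beside 13.7% of all genes). Axin2 was at a log2 fold change of -0.068 (95% interval -0.13 to -0.011, adjusted p = 0.107 with edgeR). Myc and Ccnd1 were 1.32-fold and 1.25-fold lower.

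**Figure D4:**
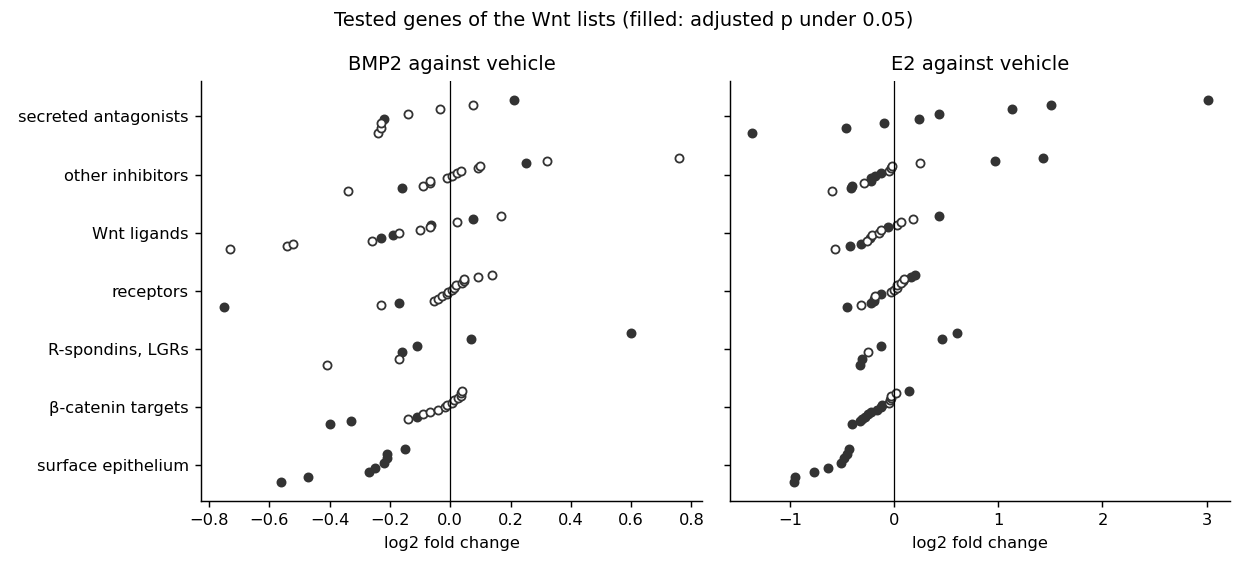
Log2 fold changes of the tested genes of each Wnt list and of surface epithelium markers, 1 point per gene, for BMP2 (left) and E2 (right) against vehicle, each with its own axis, and filled where the adjusted p was under 0.05. With E2 the Wnt ligands span -0.57 to 0.43, the receptors -0.45 to 0.20 and the other inhibitors -0.60 to 1.43. The secreted antagonists span -1.36 to 3.01. They were chosen with these values in view, so their span is not set against those of the other lists. All 8 surface epithelium markers lie below 0 under both treatments.

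Markers of cell types that could hold these transcripts moved too. The shares called in these lists stand beside 32.3% of all genes with E2 and 13.7% with BMP2, again not matched for level. In whole ovaries, fewer cells of a type and less RNA per cell cannot be told apart. All 8 tested markers of surface epithelium and mesothelium fell with E2, and their summed level was 429 to 436 CPM, against 624 to 649 with vehicle. All 8 also fell with BMP2 (545 to 558 CPM). Of 10 stroma markers 5 rose and 5 fell with E2 (100% called, summed 2343 to 2406 against 2821 to 2872 CPM). With BMP2, 1 stroma marker rose and 2 fell (30% called, 2921 to 2966 CPM), while 0 fell with DESeq2 or without BMP2 replicate 1 or 3. The stroma sums were mostly Col3a1, a collagen, and without it they were 828 to 840 CPM with E2, 885 to 894 with BMP2 and 910 to 934 with vehicle. None of the markers in these lists was at 0, and the part of these cell types in the values of Sfrp5, Sfrp2 or any other antagonist was not tested.

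Of 9 pericyte and smooth muscle markers 1 rose and 1 fell with E2 (22.2% called, summed 576 to 586 against 437 to 452 CPM). The one that rose was Myh11, a smooth muscle myosin, at 202 ± 2.8 against 59.6 ± 0.689 CPM. With BMP2, 0 of the 9 rose and 3 fell (33.3% called, 405 to 407 CPM), among them Des and Tagln. Of 7 endothelial markers 5 rose and 1 fell with E2 (85.7% called). Their sum was 218 to 231 against 219 to 225 CPM. Without Kdr, the gene of highest level in this list and the one that fell, it was 133 to 140 against 109 to 114. With BMP2, 2 endothelial markers rose and 0 fell (28.6% called, 221 to 228 CPM). However, 0 were called without vehicle replicate 1 and 1 with DESeq2 or without BMP2 replicate 1, BMP2 replicate 2 or vehicle replicate 3.

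Of 12 pregranulosa markers 5 rose and 4 fell with E2 (75% called, 2312 to 2339 against 2462 to 2489 CPM). The lower sum was that of Kitl, the KIT ligand gene, which was at 776 ± 4.91 against 978 ± 29.2 CPM, and without it the other 11 summed to more with E2 (1534 to 1561) than with vehicle (1482 to 1515). With BMP2, 3 rose and 3 fell (50% called, 2450 to 2482 CPM), and 1 rose and 2 fell without BMP2 replicate 3 or without vehicle replicate 1. Of 8 germ cell markers 5 rose and 1 fell with E2 (75% called, 1245 to 1253 against 1137 to 1204 CPM). With BMP2, 5 germ cell markers rose and 0 fell (62.5% called, 1224 to 1252 CPM), with Tdrd1 1.39-fold higher.

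Of 7 mesonephric markers tested 0 rose and 2 fell with E2 (131 to 140 against 150 to 155 CPM over the 8 found). With BMP2, 0 rose and 2 fell (147 to 151 CPM), Gata3 1.33-fold and Cdh16 2.5-fold from 1.18 to 0.472 CPM. That is 28.6% called in each comparison, beside 32.3% (E2) and 13.7% (BMP2) of all genes. The mesonephric sums were mostly Emx2. Without it they were 18.1 to 19.9 CPM with E2, 21.8 to 23.3 with BMP2 and 25.7 to 27.2 with vehicle. Of 7 macrophage markers 0 rose and 4 fell with E2 (57.1% called, 65.7 to 65.9 against 75.3 to 78.4 CPM). With BMP2, edgeR and DESeq2 each called 0 macrophage markers (70.9 to 72.7 CPM), with 2 and 1 at an unadjusted p under 0.05. The part of these lists in the values of the antagonists was not tested either.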

How the data were processed

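Per the labels' protocols, whole cultured ovaries gave RNA with an integrity number over 9, and TruSeq V2 libraries, a chemistry without strand information, were prepared from it. Each library has 1 deposited table of integer counts by gene symbol. TopHat2, HTSeq, DESeq2 and the build mm10 are named in the submitters' processing notes without versions or roles, while the annotation, strand setting and filters were not found in the labels. Groups were read from the title prefixes (B2 as BMP2, C as vehicle, E2). The members and gene lists were chosen with earlier results of these data known. The 5 summary rows (38.2% to 39.7% of a library) were left out.

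Counts were fitted with edgeR 4.0.16 in R 4.3.3 (filterByExpr defaults, TMM, 1 robust quasi-likelihood model over 9 libraries, 6 residual degrees of freedom), and p-values were adjusted over all 16360 genes by the Benjamini-Hochberg method. The function was tested on simulated data. Each standard error is |log2 fold change| over √F, and intervals are 95%. RPKM divides TMM-scaled CPM by the exon union of GENCODE vM21 on GRCm38, which is mm10. Of 153 entries in the gene lists 152 were found, Adgre1 under its older symbol Emr1. Some genes, such as Lgr5, Rspo1 and Wnt4, stand in several lists and are counted in each, so the shares called are not independent. Alternatives were DESeq2 1.42.0, median-ratio factors, other filters, fewer groups, a replicate block, a stricter threshold and leaving out each library. Named genes beyond the members are fixed reporters (Greb1, Pgr, Id1, Axin2, Lef1, Wnt4, Rspo1) and, per list, the called genes with the largest changes, no overlap of libraries and, in the group where the gene is higher, a mean of 1 CPM or more. Genes most like Wif1 or Sfrp5 are named for their correlation. Dkkl1, Kdr and, with E2, Myc were named after their values were seen.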

Additional observations from a re-analysis of the deposited data

How the results depend on the processing

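Of the 24 values of tested members under the fit with replicate number as a block, 0 changed their call, and the members called stayed at 2 (BMP2 against vehicle), 8 (E2 against vehicle) and 6 (BMP2 against E2). The numbers were not taken to pair libraries: same-numbered libraries of different groups correlated at -0.031 to 0.027 in their deviations from group means, and 4 of 9 libraries correlated best with their own number. The block called 2512, 5512 and 4875 genes in all, against 2239, 5278 and 4607.

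For BMP2 against vehicle, 0 members were called with DESeq2 and 0 at a threshold of 0.01, with 2 (Sfrp2 and Dkk3) at an unadjusted p under 0.05 in each, and 0 to 2 when single libraries were left out. All genes called fell to 1386 with DESeq2 and 1318 at 0.01. For E2 against vehicle 7 to 9 members were called without single libraries, and for BMP2 against E2 5 to 7. Dkk1, not tested in the main fit, could pass the filter when a library was left out, and the 9 include it. The BMP2 estimate for Wif1 turned sign, to -0.15 without BMP2 replicate 3, -0.0053 without vehicle replicate 1 and -0.11 without vehicle replicate 2, with a range of -0.15 to 0.39 over single libraries left out, and that for Frzb to 0.046 without BMP2 replicate 1, with a range of -0.90 to 0.046. Of all recomputed member values 291 kept direction and call, 13 lost the call, 1 gained it (Sfrp1, BMP2 against E2, without E2 replicate 3) and 4 turned sign. Of 169 recomputed counts of the other lists in each comparison with vehicle, 27 (BMP2) and 3 (E2) moved by over 1.5 times. The order of levels was the same with the longest transcript or library-size scaling, with 9 of 9 members at their place. Depth limits Wif1, Sfrp4, Sfrp5, Frzb and Dkk1, which had 15 to 110 reads over the vehicle libraries.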
